A study of Homo sapiens with 4 samples.

Results

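SPRY4 and 8 further genes for feedback inhibitors of growth factor signalling were examined for binding of the oestrogen-related receptor ERRα. The 9 genes are SPRY1, SPRY2 and SPRY4, SPRED1, SPRED2 and SPRED3, and DUSP4, DUSP5 and DUSP6, of 20037 protein-coding genes in the RefSeq table of GRCh38. They were chosen by name around SPRY4, whose peak was already known to be among the strongest of these data, so the height of that peak is a description and no test was made on it. For each gene, the peaks taken were those whose summit lay inside the gene or within 100 kb of either of its ends. The samples were 2 chromatin immunoprecipitations with an ERRα antibody from Genetex and 2 inputs of chromatin without antibody. All came from MDA-MB-231 cells, a line from a human triple-negative breast cancer, grown in DMEM with FCS and with no treatment given in the labels. It is a single line, both replicates were called against the same 2 inputs, and no RNA was measured, so a peak beside a gene says nothing about the output of that gene.

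Growth factors activate receptor tyrosine kinases, which pass the signal through RAS, RAF and MEK to the kinase ERK. ERK in turn induces genes whose products damp the pathway, and Sprouty proteins, SPRED proteins and a group of dual-specificity phosphatases are among the best known of these brakes. Sprouty and SPRED proteins act near RAS and RAF, and SPRED proteins bring the RAS inactivator neurofibromin to the membrane. DUSP4, DUSP5 and DUSP6 remove the activating phosphates from ERK. ERRα is an orphan nuclear receptor known mainly from genes of mitochondrial energy metabolism.

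Fold enrichment is the ratio of ChIP signal to input background at the summit of a peak, as computed by the authors for each replicate. A peak is called matched if it stands in the authors' list of peaks paired between replicates, and reproducible if its score in that list corresponds to an irreproducible discovery rate (IDR) of 0.05 or less (score of at least 540). There were 14072 peaks in replicate 1 and 12659 in replicate 2, with 10059 matched and 5070 reproducible. At the 9 genes there were 37 peaks in replicate 1, 33 in replicate 2, 27 matched and 15 reproducible. Read counts per peak were not used here, so the means and SD below rest on 2 values each.

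Of the 9 inhibitor genes, 6 (66.7%) had a reproducible summit within the window, against 46.4% of all protein-coding genes under the same rule. With 9 genes, chosen with the SPRY4 peak in view, this share is not a result about the group. The 6 genes were SPRY1, SPRY4, SPRED2, SPRED3, DUSP5 and DUSP6. They differed widely in number of summits and in height. SPRY4 had 6 reproducible summits, SPRED2 and DUSP5 had 3 each, and SPRY1, SPRED3 and DUSP6 had 1 each. SPRY2, SPRED1 and DUSP4 had no matched peak at all. The median over the 9 genes was 1 summit, against 0 over all protein-coding genes, and the mean was 1.67 against 0.844. SPRY4, around which the genes were chosen, gave 6 of the 15 summits behind that mean.

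**Figure D1:**
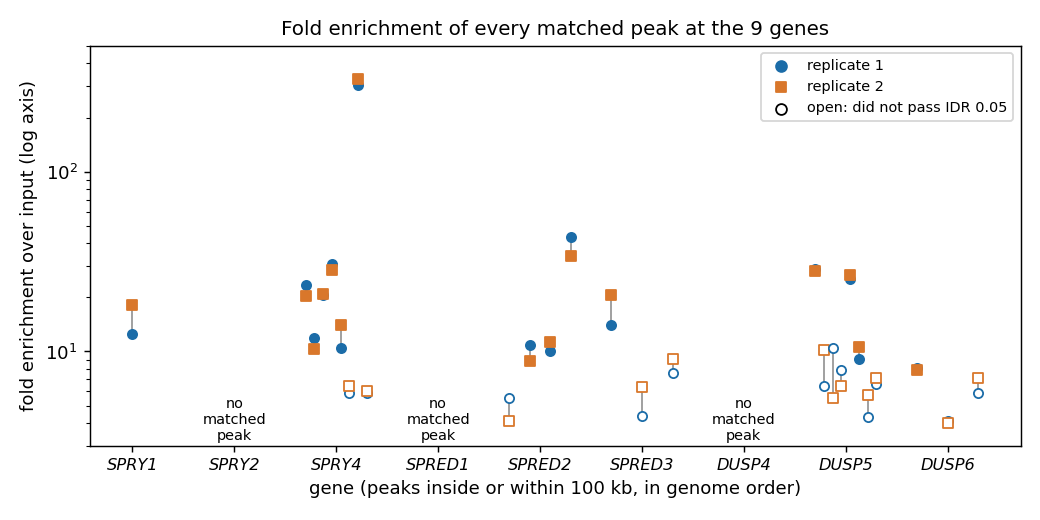
Fold enrichment over input (log axis) of every matched peak at each of the 9 genes, with circles for replicate 1 and squares for replicate 2, joined by a line, and open symbols for peaks that did not pass an IDR of 0.05. SPRY4 has the highest peak of the 9 genes in both replicates, at 303 and 325, and SPRY2, SPRED1 and DUSP4 have no matched peak.

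SPRY4 encodes a Sprouty protein that blocks ERK activation downstream of receptor tyrosine kinases. The gene lies on chromosome 5 from 142310430 to 142325021 and is read towards lower coordinates. Its highest peak spanned 142361594 to 142364683, with the summit at 142362883. Fold enrichment there was 303 in replicate 1 and 325 in replicate 2, which gives a mean of 314 ± 16.0 (SD, n = 2) and the rank of 2 among all matched peaks. The summits called in the 2 replicates lay 2 bp apart. The summit stands 37.9 kb above the upper end of SPRY4, and 38.6 kb upstream of its annotated transcript start. That start, at 142324247, is the only one given for SPRY4. The gene interval reaches above it, and whether transcripts also begin there was not examined. The summit lies 37.6 kb inside SPRY4-AS1, a non-coding gene of 139 kb that begins 272 bp from the upper end of SPRY4. No other protein-coding gene reaches to within 100 kb of this summit.

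The shape of that peak differed between the lists. Replicate 2 had a single interval of 3090 bp. Replicate 1 had an interval of 1458 bp with the summit, and beyond it a separate small peak of 5.02-fold, 1.52 kb from the matched summit, that falls inside the replicate 2 interval. Low peaks stood on both sides. The peak below the main summit, at 5.85 kb in replicate 1 and 6.05 kb in replicate 2, reached 5.84-fold in replicate 1 and 6.47-fold in replicate 2. The peak above it, at 7.02 kb in replicate 1 and 7.16 kb in replicate 2, reached 5.87-fold in replicate 1 and 6.004-fold in replicate 2. Both were matched with the lowest score in the list and did not pass IDR. Replicate 1 had 2 more, of 4.74-fold and 5.26-fold, with no partner in replicate 2.

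The next highest peak at SPRY4 was the closest to the gene. Its summit at 142326614 lies 1.59 kb beyond the upper end, 2.37 kb upstream of the annotated start and 1.32 kb inside SPRY4-AS1. It had folds of 30.5 in replicate 1 and 28.2 in replicate 2 (mean 29.4 ± 1.59, SD, n = 2) and a width of 2263 bp. The highest peak was 10.7 times as high and stood 36.3 kb further out. Between them, 17.5 kb from the gene, a lower peak had folds of 10.4 in replicate 1 and 14.1 in replicate 2 (mean 12.3 ± 2.57, SD, n = 2).

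On the other side of SPRY4, beyond its transcript end, 3 further reproducible peaks were found. The summit 14.3 kb from the gene had folds of 20.6 in replicate 1 and 21.0 in replicate 2 (mean 20.8 ± 0.232, SD, n = 2). Its neighbour 18.1 kb from the gene had folds of 11.9 in replicate 1 and 10.3 in replicate 2 (mean 11.1 ± 1.17, SD, n = 2). The summit 94.5 kb away had folds of 23.4 in replicate 1 and 20.5 in replicate 2 (mean 21.95 ± 2.10, SD, n = 2), and it is nearer to NDFIP1, which encodes an adaptor of ubiquitin ligases, at 61.5 kb. None of the 6 summits fell inside SPRY4 itself. The 6 summits span 147 kb and amount to 28.0 per Mb of the SPRY4 window, against a mean of 3.49 per Mb over the windows of all protein-coding genes. As many summits or more were found for 188 of the 20037 genes (0.938%), and a peak as high or higher for 19 (0.0948%), SPRY4 included in both. The highest SPRY4 peak ranks 2 among all matched peaks and falls in the window of no other protein-coding gene. The other genes among the 19 therefore share the same higher peak, and are not separate peaks of this height.

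**Figure D2:**
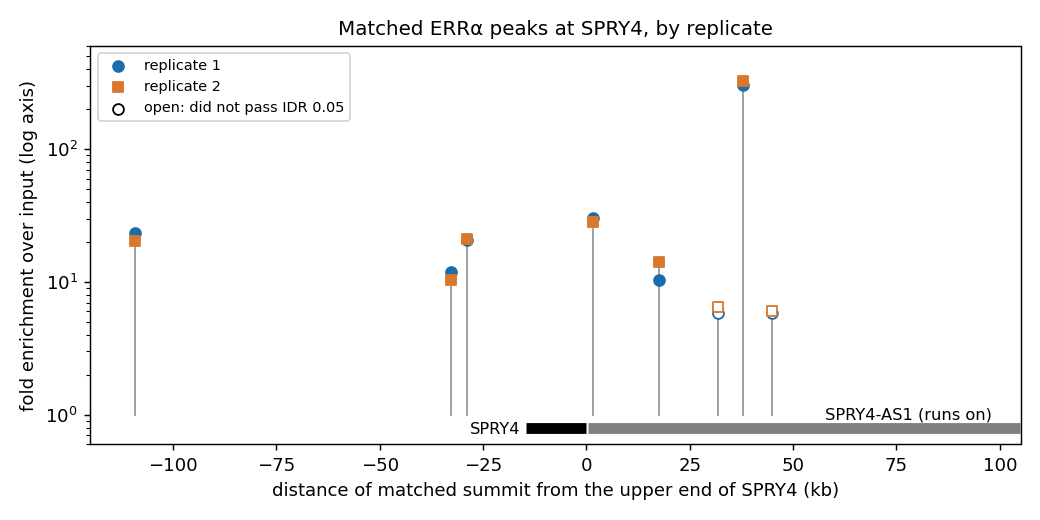
Fold enrichment over input (log axis) of the 8 matched peaks at SPRY4 against the distance of the summit from the upper end of the gene in kb, with circles for replicate 1, squares for replicate 2, open symbols for peaks that did not pass an IDR of 0.05, and bars for SPRY4 (black) and SPRY4-AS1 (grey, running on to the right). The highest peak, 37.9 kb from the gene, stands far above the peak of 29.4-fold at the gene's upper end.

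The only promoter sequence given for SPRY4 is shown because it holds the core word of the ERR response element, AAGGTCA, while the peaks lie outside it. It is the RefSeq stretch from 250 bases before to 50 after the transcript start (GRCh38.p14, chr5:142324198-142324497, minus strand), written 5′ to 3′, and the capitals mark TGACCTT, which is AAGGTCA read on the other strand.
SPRY4 promoter: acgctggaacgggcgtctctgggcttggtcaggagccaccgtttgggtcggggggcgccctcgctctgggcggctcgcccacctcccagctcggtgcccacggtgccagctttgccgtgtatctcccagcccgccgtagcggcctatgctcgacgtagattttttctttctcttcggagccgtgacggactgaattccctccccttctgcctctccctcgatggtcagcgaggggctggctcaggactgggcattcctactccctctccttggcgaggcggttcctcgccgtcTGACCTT
The word begins 44 bases after the transcript start, counting the start as 1, and ends at the last base of the window. No base of this window was under a peak of either replicate. Both strands were searched, and a match describes letters, not binding. Among 22199 promoter windows of protein-coding genes, 3.22% held AAGGTCA. The share was 39.8% (66 of 166) among windows with a reproducible summit inside, against 2.94% among the others. The 9-base form TCAAGGTCA, which contains AAGGTCA, was found in 7.23% of windows with a summit and 0.191% of the others. The AP-1 word TGANTCA, which reads the same on both strands, was found in 6.63% and 6.15%. Windows overlap where a gene has neighbouring starts, so these shares are descriptions.

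Promoter windows were given for 7 of the 9 inhibitor genes, 12 windows in all. None held a reproducible summit, and 0.748% of the 22199 windows of protein-coding genes did, so a count of 0 among 12 is not a result about these genes. The SPRY4 window was the only one of the 12 with AAGGTCA, none had TCAAGGTCA, and 2 had TGANTCA (the window of the inner SPRED2 start and that of the inner SPRED3 start). The sequence under the summits at the 9 genes was not used here, so the words could not be searched there.

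SPRED2 encodes a membrane-bound inhibitor of RAS to ERK signalling. It had the highest peak after SPRY4, just upstream of its start. The gene lies on chromosome 2 from 65307175 to 65432599 and is read towards lower coordinates. The peak spanned 65435814 to 65438352 with its summit at 65437504, 4.91 kb upstream of the start, outside all genes of the table. Folds were 43.3 in replicate 1 and 33.9 in replicate 2 (mean 38.6 ± 6.70, SD, n = 2), and both replicates placed the summit on the same base. A peak as high or higher was found for 6.10% of all protein-coding genes. The 2 other reproducible peaks were inside the gene close to the same start. The summit 917 bp downstream of it had folds of 10.0 in replicate 1 and 11.3 in replicate 2 (mean 10.7 ± 0.922, SD, n = 2). The summit 4.66 kb downstream had folds of 10.9 in replicate 1 and 8.90 in replicate 2 (mean 9.90 ± 1.42, SD, n = 2). All 3 thus lay within 5 kb of the same start, and no other protein-coding gene has them within 100 kb. A weak peak 50.3 kb inside the gene, of 5.49-fold in replicate 1 and 4.11-fold in replicate 2, did not pass IDR.

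SPRY1, the gene for another Sprouty protein, lies on chromosome 4 from 123396795 to 123403760. It had 1 reproducible peak, 12.3 kb beyond its transcript end and 17.7 kb downstream of the nearer of its 2 annotated starts. Folds were 12.5 in replicate 1 and 18.1 in replicate 2 (mean 15.3 ± 3.97, SD, n = 2), with summits 103 bp apart. Replicate 1 also had a peak of 5.33-fold inside the gene that was absent from the replicate 2 list. SPRED3 encodes a further SPRED protein and lies on chromosome 19 from 38388697 to 38399587. Its reproducible peak was 52.9 kb from the gene, inside RYR1, which encodes a calcium release channel of muscle. Folds were 13.99 in replicate 1 and 20.7 in replicate 2 (mean 17.3 ± 4.73, SD, n = 2). The SPRED3 window holds 10 other protein-coding genes and this summit falls in the windows of 7 genes in all, so it was assigned to SPRED3 by distance alone.

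DUSP5 encodes a phosphatase that inactivates ERK in the nucleus. The gene lies on chromosome 10 from 110497907 to 110511533, and its 3 reproducible summits all stood below its lower end, the side of the divergent transcript DUSP5-DT. The summit 55.7 kb away, inside the non-coding gene LOC105378482, had folds of 25.4 in replicate 1 and 26.8 in replicate 2 (mean 26.1 ± 0.969, SD, n = 2). The summit 45.4 kb away had folds of 9.05 in replicate 1 and 10.6 in replicate 2 (mean 9.85 ± 1.12, SD, n = 2). The farthest, at 98.1 kb, was the highest, with folds of 28.8 in replicate 1 and 28.2 in replicate 2 (mean 28.5 ± 0.429, SD, n = 2), but it is slightly nearer to SMNDC1, a splicing factor gene, at 94.9 kb. A peak as high or higher was found for 10.7% of all protein-coding genes. A further 5 matched peaks at DUSP5 did not pass IDR, among them that inside the gene, of 6.63-fold in replicate 1 and 7.10-fold in replicate 2. Replicate 2 alone had a peak of 4.44-fold with its summit 300 bp below the lower end of the gene and an interval that reaches over that end.

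DUSP6 encodes a cytoplasmic phosphatase with high selectivity for ERK. It lies on chromosome 12 from 89347235 to 89352501 and is read towards lower coordinates. Its reproducible peak was inside the gene, 1.62 kb downstream of the start, and low. Folds were 8.05 in replicate 1 and 7.91 in replicate 2 (mean 7.98 ± 0.0923, SD, n = 2). Among the protein-coding genes with a reproducible summit in the window, 98.6% had a peak as high or higher. The IDR score of this peak, 611, was the lowest of those that passed at the 9 genes, and the highest score that did not pass was 535, at a SPRED3 peak of 7.59-fold in replicate 1 and 9.09-fold in replicate 2. Upstream of DUSP6, at 3.30 kb, a matched peak of 5.85-fold in replicate 1 and 7.14-fold in replicate 2 did not pass, nor did that at 2.05 kb, of 4.11-fold and 4.02-fold in the same order. The transcription unit POC1B-DUSP6, which joins DUSP6 to its neighbour, also covers these peaks.

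Of the 12 promoter windows given, which cover 7 of the 9 genes, those of DUSP6 and of the first SPRY2 start were the 2 that a peak touched, each in a single replicate. Both are RefSeq stretches of GRCh38.p14 on the minus strand, written 5′ to 3′ (DUSP6 at chr12:89352452-89352751 and SPRY2, first start, at chr13:80341077-80341376). The capitals mark the bases under the replicate 1 peak at DUSP6 (276 of 300) and under the replicate 2 peak at SPRY2 (56 of 300).
DUSP6 promoter: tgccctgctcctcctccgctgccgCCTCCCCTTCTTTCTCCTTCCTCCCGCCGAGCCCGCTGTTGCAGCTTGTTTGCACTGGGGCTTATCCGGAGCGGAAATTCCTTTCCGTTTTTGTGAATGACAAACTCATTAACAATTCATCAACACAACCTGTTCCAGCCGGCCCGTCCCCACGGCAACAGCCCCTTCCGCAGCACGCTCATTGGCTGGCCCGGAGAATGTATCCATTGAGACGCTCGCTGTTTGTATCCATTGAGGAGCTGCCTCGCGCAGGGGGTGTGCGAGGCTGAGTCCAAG
SPRY2 promoter: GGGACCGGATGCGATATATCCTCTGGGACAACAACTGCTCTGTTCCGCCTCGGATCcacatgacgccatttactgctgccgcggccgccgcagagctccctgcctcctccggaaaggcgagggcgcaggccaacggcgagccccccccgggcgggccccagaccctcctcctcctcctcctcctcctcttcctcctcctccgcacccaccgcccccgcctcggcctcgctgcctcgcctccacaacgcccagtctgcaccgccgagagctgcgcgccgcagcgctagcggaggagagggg
The DUSP6 promoter peak had a fold of 4.46 in replicate 1, with its summit 46 bp upstream of the gene, and was absent from the replicate 2 list. Neither sequence holds AAGGTCA or TGANTCA on either strand.

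The other 3 genes had no matched peak. SPRY2, the gene for a Sprouty protein that binds the adaptor GRB2 and the ubiquitin ligase CBL, lies on chromosome 13 from 80335976 to 80341126. It had 1 peak, of 5.11-fold in replicate 2 and with its summit 411 bp upstream of the gene, and none in replicate 1. Its nearest reproducible summit was 487 kb away. DUSP4, which encodes an inducible nuclear phosphatase of ERK and other MAP kinases, lies on chromosome 8 from 29333064 to 29350684. It had 2 peaks in replicate 2, of 4.43-fold inside the gene and of 6.04-fold at 79.7 kb, inside KIF13B, and none in replicate 1. Its nearest reproducible summit was 283 kb away. SPRED1, mutated in Legius syndrome, lies on chromosome 15 from 38252836 to 38357249. It was the only one of the 9 genes with no peak in either replicate's own list, and its nearest reproducible summit was 537 kb away.

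Some peaks at the 9 genes were found in a single replicate only. There were 9 of 37 in replicate 1 and 6 of 33 in replicate 2, with folds from 3.83 to 7.65. The share of such peaks over the whole lists was not counted, so these numbers are a description. Counted in the list of replicate 2 alone, 8 of the 9 genes had a peak in the window, against 70.0% of all protein-coding genes. In the list of replicate 1 alone 6 had a peak, against 72.5%. With all matched peaks the count was 6 of 9, against 64.4% of all genes, and with a −log10 q of at least 5 in both replicates also 6, against 60.2%. The 12 matched peaks that did not pass IDR had mean folds from 4.06 to 8.34, so the lowest reproducible peak, at DUSP6, lay within their range.

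Of the 15 reproducible summits, 1, in SPRED2, lay within 1 kb of an end of its inhibitor gene (6.67%). Of all 5070 reproducible summits, 15.1% lay within 1 kb of an end of some protein-coding gene, a wider criterion. With 15 summits and unlike criteria, the difference in share is not a result about these genes. There were 3 summits inside an inhibitor gene, 2 in SPRED2 and 1 in DUSP6, and 5 in all lay inside or within 10 kb. A further 4 lay beyond 50 kb. The annotation used here gives the strand for SPRY1, SPRY4, SPRED2, SPRED3 and DUSP6, which have 12 of the 15. Of these 12, 4 lay upstream of the gene, 3 inside it and 5 beyond its transcript end. For 12 of the 15, the inhibitor gene was the nearest protein-coding gene. The exceptions were the farthest summits at SPRY4 and DUSP5 and that at SPRED3. Exons and introns could not be told apart with the annotation used here.

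**Figure D3:**
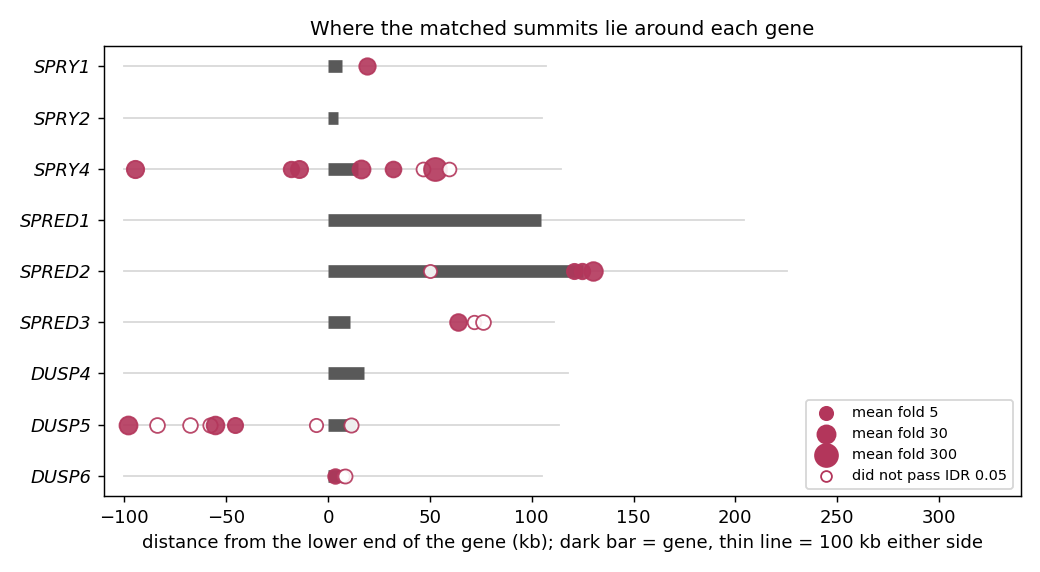
Position of every matched summit in kb from the lower-coordinate end of each gene, with the gene as a dark bar, the window of 100 kb on either side as a thin line, point area growing with the logarithm of mean fold, and open points for peaks that did not pass an IDR of 0.05. The 3 reproducible summits of SPRED2 lie at a single end of the gene, those of DUSP5 all lie below the gene and those of SPRY4 on both sides.

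The count of inhibitor genes with a reproducible summit depended on the window. It was 2 of 9 with no window, against 11.5% of all protein-coding genes, 3 of 9 with 10 kb, against 18.3%, 5 of 9 with 50 kb, against 33.7%, and 6 of 9 with 200 kb, against 61.5%. At an IDR of 0.01 it was 5 of 9, against 39.5%. The choice of 100 kb left further summits outside the window. Within 200 kb of SPRY4, 4 more reproducible summits stood between 109 and 190 kb from the gene, with mean folds of 9.18 ± 2.11, 8.64 ± 1.16, 10.6 ± 0.880 and 10.7 ± 0.477 in order of distance (SD, n = 2 each). At DUSP5, the next was at 121 kb with 8.20 ± 0.772. At SPRED3, 3 stood between 141 and 192 kb, of which the farthest, inside SIPA1L3, reached 80.6 ± 11.3 (SD, n = 2 each).

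The replicates placed these peaks alike. The 2 summits of a reproducible peak at the inhibitor genes were 0 to 183 bp apart with a median of 14 bp, against 26 bp over all reproducible peaks. The ratio of the replicate 1 fold to the replicate 2 fold ran from 0.676 at SPRED3 to 1.28 at the SPRED2 upstream peak, with a median of 0.984, against 1.03 over all reproducible peaks. Replicate 1 was higher at 7 of the 15 peaks and replicate 2 at 8. Passing IDR selects for such likeness. The median mean fold of the 15 peaks was 17.3, against 12.9 over all reproducible peaks, and their median width was 844 bp, against 774 bp.

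**Figure D4:**
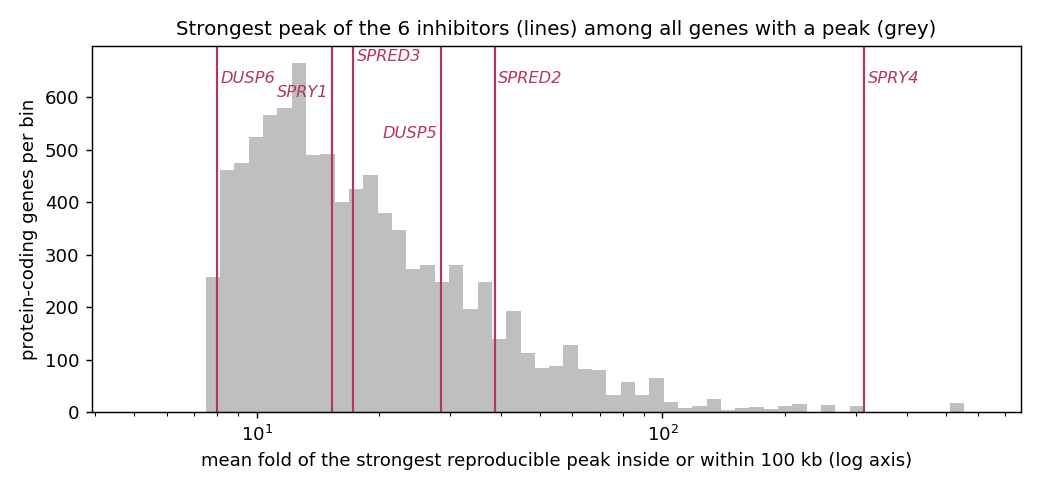
Histogram of the mean fold of the strongest reproducible peak inside or within 100 kb (log axis), over the 9297 protein-coding genes that have such a peak (grey), with lines for the 6 inhibitor genes. SPRY4 lies in the extreme upper tail at 314, SPRED2 and DUSP5 in the upper part at 38.6 and 28.5, SPRED3 and SPRY1 near the middle, and DUSP6 at the lower edge.

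Taking the strongest peak of each of the 6 genes, the order was SPRY4 (314 ± 16.0), SPRED2 (38.6 ± 6.70), DUSP5 (28.5 ± 0.429), SPRED3 (17.3 ± 4.73), SPRY1 (15.3 ± 3.97) and DUSP6 (7.98 ± 0.0923), each SD with n = 2. SPRY4 stood 8.14 times above SPRED2. SPRED3 and SPRY1 differed by less than their SD. The median of the 6 was 22.9, against 16.2 over the 9297 genes with a reproducible summit, and without SPRY4 the other 5 ran from below to above that median.

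The rest of the pathway was described with 5 lists of its genes under the same rule. Of 88 genes, 50 (56.8%) had a reproducible summit in the window. Growth factors had 6 of 16 (37.5%), receptor tyrosine kinases 9 of 16 (56.3%), and adaptors with the RAS to ERK cascade 11 of 21 (52.4%). ERK-responsive genes had 11 of 15 (73.3%) and other brakes of the pathway 13 of 20 (65.0%). These shares stand beside 66.7% for the 9 inhibitor genes and 46.4% for all protein-coding genes, and no difference between lists was tested. The median strongest fold was 24.9 among the other brakes and 25.6 among the ERK-responsive genes, against 12.7 among growth factors and 16.2 among all genes with a summit.

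**Figure D5:**
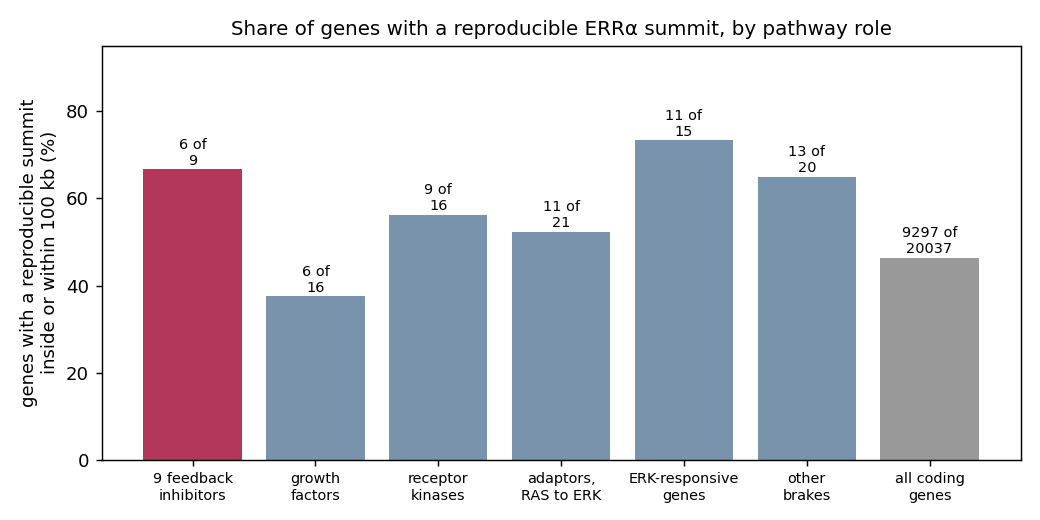
Percentage of genes with a reproducible ERRα summit inside or within 100 kb, for the 9 feedback inhibitors, 5 lists of pathway genes and all protein-coding genes, with counts above the bars. The inhibitors stand at 66.7%, the ERK-responsive genes at 73.3%, growth factors at 37.5% and all genes at 46.4%.

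The highest peak near a gene of these lists was at ETV4, which encodes an ETS factor that acts downstream of ERK, with folds of 94.2 in replicate 1 and 99.4 in replicate 2 (mean 96.8 ± 3.66, SD, n = 2). It lay inside ETV4, 3.15 kb from an end, and also inside the RNA helicase gene DHX8, whose interval in the table overlaps it. PHLDA1, a gene induced by growth factors, had 6 reproducible summits, and the highest was 49.6 kb away with a mean of 77.9 ± 1.59 (SD, n = 2). JUNB, an AP-1 subunit, had its peak of 42.9 ± 1.45 at 43.4 kb, nearer to RTBDN and in the windows of 14 protein-coding genes in all. None of the ETV4, PHLDA1 and JUNB peaks was as high as that of SPRY4.

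Among other brakes, the highest were inside LRIG1, which lowers the level of ERBB receptors (36.2 ± 4.23, SD, n = 2), near PEBP1, an inhibitor of RAF (31.6 ± 1.85, at 15.0 kb), and inside RASAL2, a RAS inactivator (30.9 ± 0.970). These 3 are of the order of the SPRED2 and DUSP5 peaks. In the cascade, the peaks assigned to MAP2K2 (72.7 ± 0.00659, at 11.95 kb), MAPK3 (62.8 ± 7.02, at 47.5 kb) and MAP2K1 (30.3 ± 3.49, at 6.10 kb), which encode MEK and ERK kinases, were each nearer to another gene. Those genes were ZBTB7A for MAP2K2 and SNAPC5 for MAP2K1. For MAPK3 the summit lies inside both LOC112694756 and ALDOA, whose intervals overlap there, and in the windows of 15 protein-coding genes in all.

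Among receptors, the RET peak was inside the gene (81.8 ± 3.07, SD, n = 2), that of ERBB3 1.49 kb from it (27.2 ± 0.331), and that of AXL inside it (25.4 ± 1.08). The ERBB3 summit falls in the windows of 13 protein-coding genes in all, that of AXL in 6 and that of RET in 3. The ERBB3 peak was thus assigned to ERBB3 by distance alone. Of growth factors, PDGFB (61.6 ± 2.78, at 55.0 kb) and EGF (19.8 ± 0.589, at 74.3 kb) had peaks nearer to another gene, and the TGFA peak (14.6 ± 0.168, at 55.7 kb) had TGFA as its nearest. No promoter window of these lists, of 116 given, held a reproducible summit, beside 0.748% of all windows, a share at which a count of 0 is not a result about the lists.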

How the data were processed

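ERRα ChIP-seq of MDA-MB-231 cells, with 2 ChIP replicates and 2 inputs, was used as deposited peak lists. Per the submitters' processing notes, the tools were deepTools, MACS2 2.2.6, SAMtools, Picard, Bowtie2 2.3.5 and Trim Galore 0.6.5 with hg38, and no settings are given there. Each list was called against both inputs, as its name states. The authors' deposited fold ratio, −log10 p and −log10 q were given per peak and replicate. The authors' matched list gives an IDR score and the sum of both folds as a ratio. Its fold per replicate was taken here from the strongest peak of that replicate's own list in the matched interval.

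Peaks outside the numbered chromosomes, X and Y were left out: 371 of replicate 1, 358 of replicate 2 and 272 matched. The summit is column 2 plus column 10, written 1-based. Gene intervals, promoter sequences and strand came from RefSeq GRCh38.p14. Windows were 100 kb, and tables were made with Python 3.11.15 and pandas 2.3.3. The assignment of summits to genes was tested on simulated data. The 9 genes, the 5 pathway lists, and the rule that names all peaks of the 9 genes and 3 genes per list by height were chosen with earlier results of these data known. No test was run, since the 2 libraries form a single group and no read counts were used, so precision rests on SD alone. The series' design text ties the 2 ChIP replicates to 2 cultures of cells. Alternatives were windows of 0, 10, 50 and 200 kb, an IDR of 0.01, all matched peaks, each replicate's own list, and a −log10 q of at least 5 in both.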

Additional observations from a re-analysis of the deposited data

How the results depend on the processing

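With no window around the gene, 2 of the 9 inhibitor genes (SPRED2 and DUSP6) had a reproducible summit, with 3 summits, against 17 of 88 pathway genes and 2299 of all protein-coding genes. With 10 kb, where SPRY4 is added, the counts were 3 genes, 5 summits, 26 pathway genes and 3669 genes in all. With 200 kb the inhibitor genes had 23 summits, with all matched peaks 27, and with a −log10 q of at least 5 in both replicates 23. Leaving out a replicate, by using the other's own list, gave 33 to 37 summits at the inhibitor genes and 14024 to 14534 genes in all. At an IDR of 0.01 DUSP6 dropped out, and with a window of 50 kb SPRED3 did, which left 5 of the 9 genes in each case. The strongest fold changed by more than its SD at SPRY4 with 10 kb (29.4), at DUSP5 with 50 kb (9.85), at SPRED2 with no window (10.7) and at SPRED3 with 200 kb (80.6). No paired analysis was possible because no peak list of the inputs was used and the result comes from no test.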

Other observations

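The stretch between the coding genes on either side of SPRY4, NDFIP1 and FGF1, is 438 kb long and held 11 reproducible summits, or 25.1 per Mb. Of these, 5 lay more than 100 kb from SPRY4, and the other 6 are the summits of the SPRY4 window described above. The density is thus not separate from that of the SPRY4 window, and that of other stretches between coding genes was not counted. FGF1 encodes a ligand of the FGF receptors, whose signal Sprouty proteins damp. Towards FGF1, the summit 77.0 kb from that gene had folds of 11.1 in replicate 1 and 10.4 in replicate 2 (mean 10.7 ± 0.477, SD, n = 2). The summit 57.4 kb from it had folds of 8.65 in replicate 1 and 10.3 in replicate 2 (mean 9.49 ± 1.18, SD, n = 2). Of the 11 summits, 6 had a mean fold under 12, and the highest, of 314, stood 229 kb from FGF1. Which gene, if any, these peaks act on was not measured.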
